A study of Homo sapiens with 24 samples.

Results

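Untreated empty-vector clones of HaCaT cells, an immortalised and non-malignant line of human keratinocytes, were compared between week 29 and week 12 of continuous culture. The libraries were chosen by their labels as vector clones at 0 nM inorganic arsenic (iAs), which gave 3 libraries at week 12 and 3 at week 29, 6 of the 24 in the series. The other 18 libraries were vector clones with 100 nM iAs and hsa-miR-186 clones with 0 or 100 nM iAs, 3 per week, and all entered the model that estimates the spread. Both groups carry the empty vector and, per the labels, were kept in 1 serum-containing medium with 1 passage routine. Per the labels, 3 clonal lines carried the empty vector and were kept throughout. Which clone a replicate number stands for is not given in the labels, so a number is not known to mark the same clone at both weeks. Week of culture and the time of RNA isolation cannot be told apart in this design.

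Immediate early genes encode short-lived messages that cells switch on within minutes of a growth factor, serum, stress or a cytokine, without new protein synthesis. Many encode transcription factors of the AP-1, EGR and NR4A families. Others encode feedback inhibitors, such as the phosphatases of the DUSP family and the NF-kB inhibitor NFKBIA. In keratinocytes these genes are known from wounding, EGF receptor signalling and the response to ultraviolet light.

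At week 29, 117 of 14228 genes tested were lower than at week 12 (0.822%) and 12 were higher (0.0843%), by limma on log2(FPKM + 0.5) at a Benjamini-Hochberg adjusted p under 0.05. FPKM are read fragments scaled by transcript length and by the library total. A log2 change of −1 on the log2(FPKM + 0.5) scale is close to a halving for genes well above 0.5 FPKM. Folds are taken from these changes, so in low genes they are smaller than the ratio of the FPKM printed. The genes that fell were led by prostaglandin synthase PTGS2, the nuclear receptor NR4A1, EGR2, FOSB and the cytokine IL6. The genes that rose were led by OASL. The median change of the falls was −1.38, and −1.33, −1.44 and −1.24 in the pairs of libraries with replicate number 1, 2 and 3, against 0.00 for all genes tested. In each of the 117 falls and each of the 12 rises the libraries of both weeks did not overlap. Non-overlap alone was met by 1469 of all genes tested in the lower direction (10.3%) and by 1125 in the higher (7.91%). With the replicate number as a block, limma gave 199 falls (1.4%) and 30 rises (0.211%), which held all 117 and 12. The falls numbered 71 without week 12 replicate 1, 43 without week 12 replicate 2, 47 without week 29 replicate 1 and 57 without week 29 replicate 3. Since their libraries did not overlap, leaving out a library could not bring any of the 117 above 0. Their median without week 12 replicate 2 was −1.25.

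**Figure D1:**
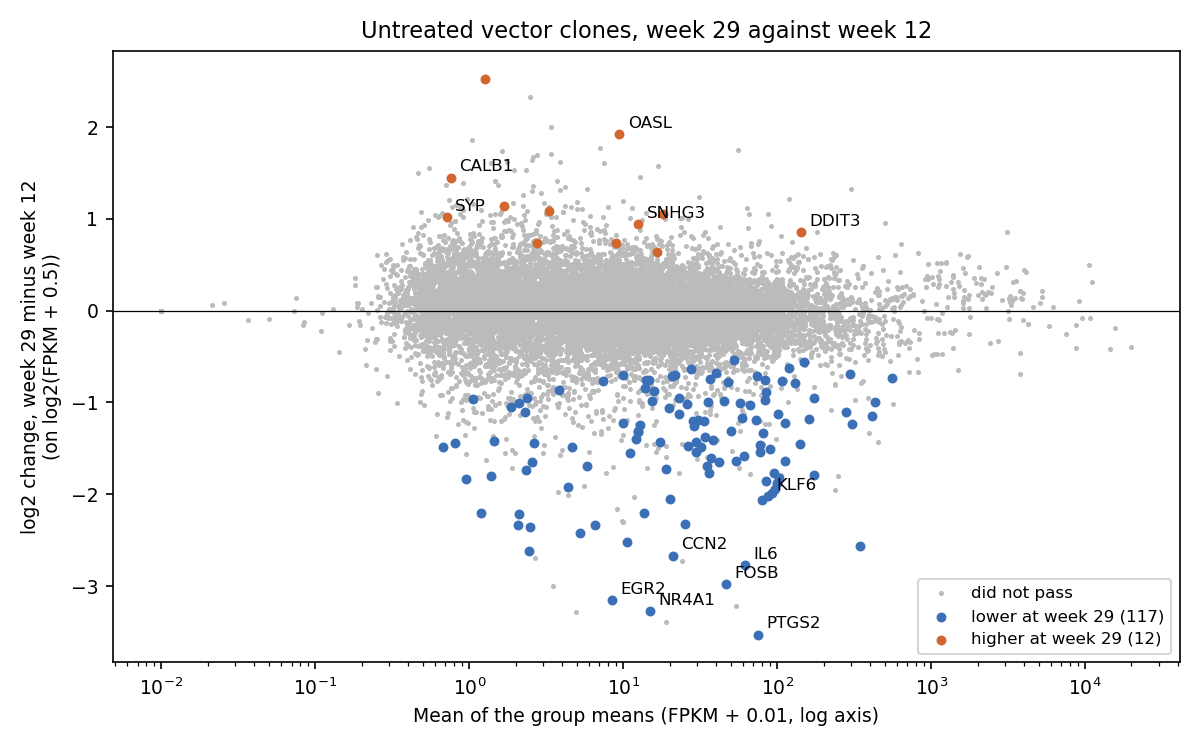
Log2 change from week 12 to week 29 (vertical axis) against the mean level of each gene in FPKM (log horizontal axis) for all 14228 genes tested. Blue points are the 117 falls and orange points the 12 rises, and the named falls reach −3.53 (PTGS2).

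Levels were read at week 12, the week in which a fall is high and a rise is low by definition. The scale used also shrinks the changes of low genes. The median level there was 44.8 FPKM for the falls, 2.76 FPKM for the rises and 9.79 FPKM for all genes tested. The median GC content of the falls was 47.7%, against 48.7% for all genes tested. Of the falls, 105 were protein-coding, with a median genomic span of 17.6 kb against 33.1 kb for the 12014 protein-coding genes tested. These are descriptions, without a test.

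RefSeq promoters (GRCh38.p14, from 250 bases before to 50 after the start site) matched 86 of the 117 falls and 10324 of the genes tested. The letters TATAAA, the core of a TATA box, stood on either strand in 15 of the 86 (17.4%), against 5.88% of the promoters of genes tested. On the gene's own strand and starting 40 to 20 bases before the start site, a distance chosen after the matches were seen, they stood in 7 of the 86 (8.14%) against 1.78%. The stretches of these genes are shown because they include PTGS2, FOSB, DUSP1 and CCN2, whose levels are described next, with the TATA box in capitals. They are from chr1:186680438-186680467 (minus strand), chr19:45467954-45467983 (plus), chr5:172771208-172771237 (minus), chr6:131951387-131951416 (minus), chr3:101827949-101827978 (plus), chr19:48872379-48872408 (plus) and chr1:153217543-153217572 (plus), in the order below.
PTGS2: ggttttcagtctTATAAAaaggaaggttct
FOSB: gggtcccgggcaTATAAAtacaggctggcg
DUSP1: ccagaggccgcaTATAAAcgcgctccccgg
CCN2: ccgcccggagcgTATAAAagcctcgggccg
NFKBIZ: gaaagcgaacgcTATAAAgggcgccagtga
PPP1R15A: ggcgcggtaggcTATAAAagcctagtggcc
PRR9: gactaagcaacaTATAAAagtcccaccttg

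Other motifs were searched on both strands in the same promoters. The CArG box, the site of serum response factor, stood in 3 of the 86 falls (3.49%) against 0.988%. The cAMP response element TGACGTCA stood in 4 (4.65%) against 3.35%, and the NF-kB site stood in 11 (12.8%) against 12.9%. The AP-1 site TGANTCA stood in 2 (2.33%) against 4.79%, and the TEAD site GGAATG in 14 (16.3%) against 11.1%. Stretches with the site in capitals are given for the cytoskeletal genes RND3 at chr2:150487748-150487777 (minus) and TPM4 at chr19:16067355-16067384 (plus), whose site is a CArG box. For DUSP1 at chr5:172771302-172771331 (minus) it is a cAMP response element. For IL6 at chr7:22727117-22727146 (plus) and NFKBIA at chr14:35404811-35404840 (minus) it is an NF-kB site, which NFKBIA holds on the opposite strand. A match describes letters in these windows and says nothing of binding.
RND3: ctcccaggctCCATAAAAGGggaggaggca
TPM4: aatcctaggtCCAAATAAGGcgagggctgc
DUSP1: ggcagggcgggTGACGTCAccgccccgtca
IL6: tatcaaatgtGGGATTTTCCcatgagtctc
NFKBIA: tgactggcttGGAAATTCCCcgagcctgac

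Of 23 AP-1 and early response genes, most of them transcription factors and all measured, 12 fell and 0 rose, and 22 lay below 0. The median change was −1.47, and −1.58, −1.69 and −1.28 in pairs 1, 2 and 3, against 0.00 over all genes tested. With the replicate block 14 fell. The count was 6 without week 12 replicate 2, 7 without week 29 replicate 1 and 8 to 11 without any other single library, with medians of −1.35 and −1.36 in the first pair of cases. It was 4 without replicate 1 of both weeks and 6 without replicate 2 or replicate 3 of both. Week 12 replicate 2 was the highest of the 3 week 12 libraries for 19 of the 23 genes, for 94 of the 117 falls and for 43% of all genes tested.

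KLF6, a zinc finger factor induced by injury, gave the smallest p of all genes (ENSG00000067082, GRCh38 chromosome 10, 3775996 to 3785281, minus strand). It stood at 146, 140.0 and 135 FPKM in the week 12 libraries, then 36.3, 33.1 and 33.0 FPKM at week 29. The libraries of a week lay close together, and KLF6 fell by 2.02 ± 0.15 on the log2 scale (4.07-fold, adjusted p = 2.43e-07 in limma, n = 3 per week). It also passed, downward, in each alternative and without each library.

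NR4A1, an orphan nuclear receptor of the early response (chromosome 12, 52022832 to 52059507), stood at 19.4, 50.7 and 13.3 FPKM at week 12, then 1.25, 3.35 and 1.80 FPKM at week 29. It fell by 3.28 ± 0.75 (9.69-fold, adjusted p = 0.0365 in limma), and replicate 2 was the highest library in both weeks. Its relatives moved the same way. NR4A2 went from 6.76, 14.6 and 6.46 FPKM to 1.19, 1.25 and 1.18 FPKM (−2.42 ± 0.31). NR4A3 went from 1.64, 9.10 and 1.24 FPKM to 0.113, 0.238 and 0.114 FPKM (−2.33 ± 0.48), so that its week 29 level was near 0.

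EGR2, a zinc finger factor of the EGR family (chromosome 10, 62811996 to 62919900), stood at 10.4, 29.3 and 7.88 FPKM at week 12 and 0.608, 1.28 and 1.45 FPKM at week 29 (−3.15 ± 0.64, 8.90-fold). FOSB, an AP-1 subunit (chromosome 19, 45467995 to 45475179), stood at 72.5, 115 and 61.4 FPKM and then at 7.62, 16.8 and 7.10 FPKM (−2.98 ± 0.52, 7.89-fold). ATF3, a stress-induced factor that pairs with AP-1 proteins, stood at 485, 858 and 429.6 FPKM and then at 88.0, 113 and 85.9 FPKM (−2.56 ± 0.31, 5.92-fold). In all of these the highest week 29 library lay below the lowest week 12 library. JUN, the partner of the FOS proteins, fell by 1.43 ± 0.21, from 43.3, 44.4 and 41.0 FPKM to 14.2, 21.5 and 12.4 FPKM. IER3, an early response gene that modulates ERK and NF-kB signalling, fell by 1.54 ± 0.17, from 120.3, 104 and 121 FPKM to 42.6, 34.7 and 40.4 FPKM.

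Some of the best-known members did not pass. FOS, the founding AP-1 gene, stood at 608, 822 and 525 FPKM at week 12, then 195, 359.7 and 189.6 FPKM at week 29 (−1.43 ± 0.39, adjusted p = 0.104 in limma, and 0.0380 with the replicate block). MYC stood at 159.6, 196 and 165 FPKM and then at 92.4, 100.1 and 95.1 FPKM (−0.85 ± 0.24, adjusted p = 0.130, and 0.00254 with the block). EGR1 stood at 91.2, 157 and 63.7 FPKM and then at 20.7, 47.5 and 21.9 FPKM (−1.78 ± 0.55, adjusted p = 0.190, and 0.0840 with the block). The libraries of both weeks did not overlap in FOS, MYC or EGR1. JUNB (−0.27 ± 0.54) and the small MAF protein MAFK (0.01 ± 0.32) had overlapping libraries.

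**Figure D2:**
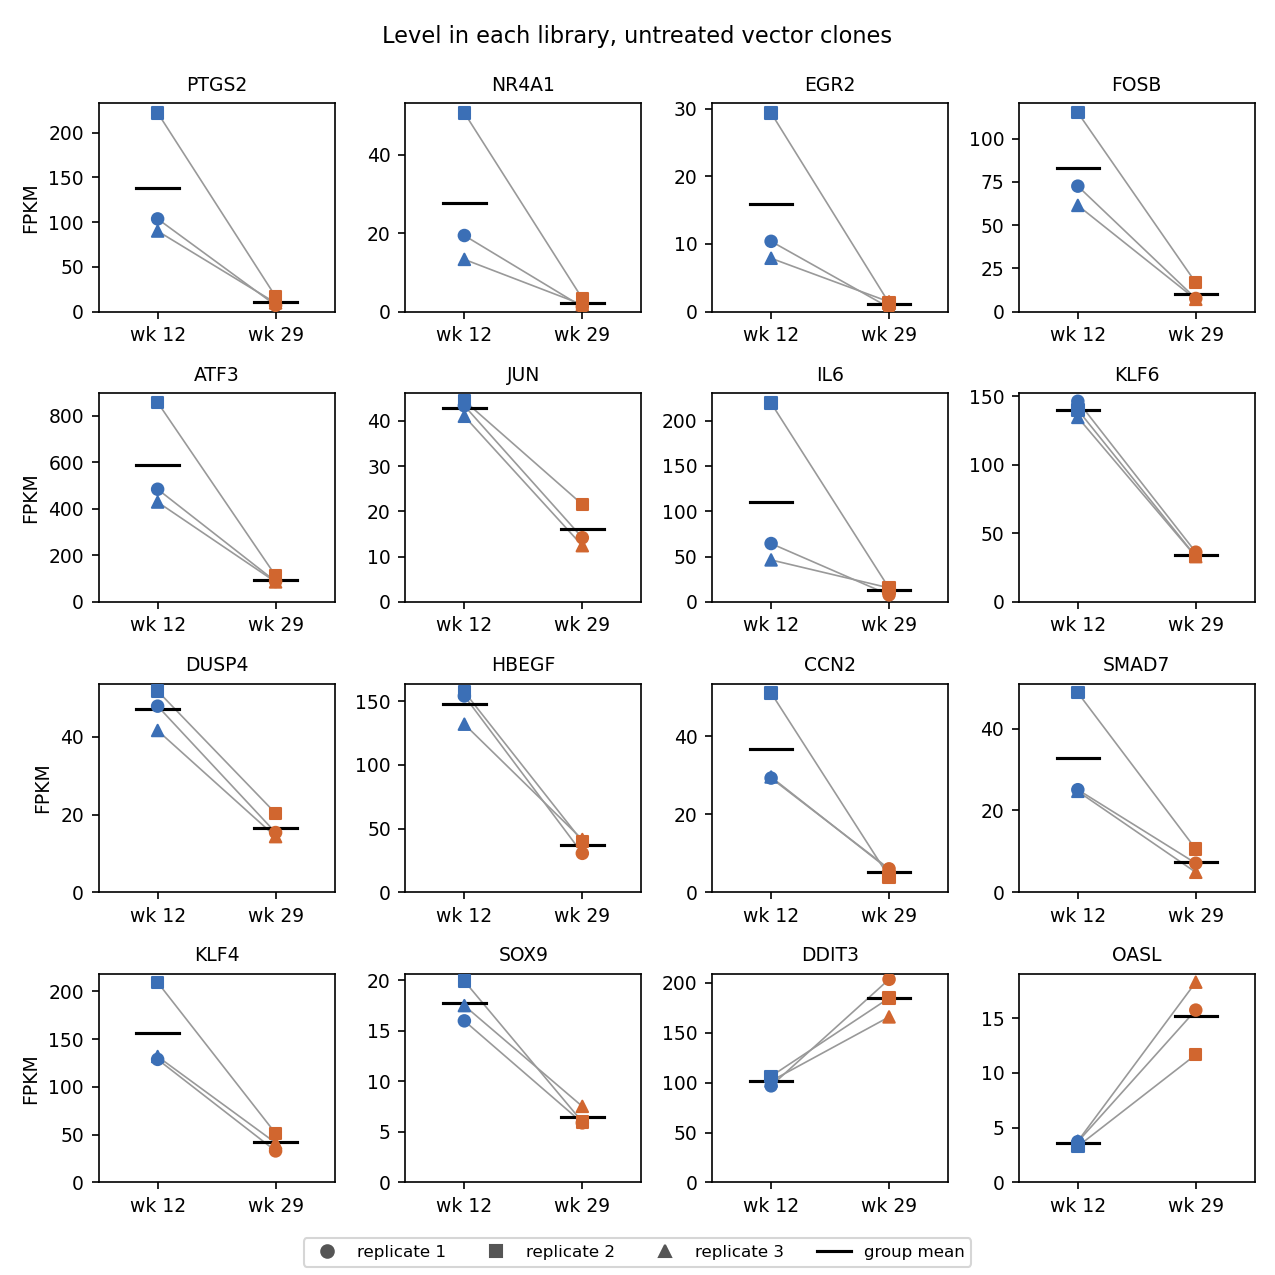
FPKM of 16 genes in each of the 6 libraries (linear axes from 0), with grey lines joining libraries of the same replicate number and black bars at the group means. The 14 genes that fell have every week 29 point below every week 12 point, and DDIT3 and OASL show the opposite.

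Some inhibitors of MAP kinase signalling fell. Of 17 measured genes of MAPK feedback, 5 fell, 0 rose and 12 did not pass (6 fell and 0 rose with the block), with a median of −0.56. DUSP1, a nuclear phosphatase of MAP kinases, fell by 1.82 ± 0.30, from 148, 189 and 144 FPKM to 36.5, 59.8 and 40.9 FPKM. DUSP4, another nuclear MAP kinase phosphatase, fell by 1.48 ± 0.27, from 47.9, 51.8 and 41.7 FPKM to 15.4, 20.3 and 14.3 FPKM. DUSP10, a phosphatase of the stress kinases JNK and p38, fell by 1.17 ± 0.22. SPRY2, an inhibitor of receptor tyrosine kinase signalling, fell by 1.22 ± 0.27 and, like IER3, is counted here. The list's count of falls was 3 to 5 over the fits that left out 1 library, and it was 3 without week 12 replicate 2, week 29 replicate 1, week 29 replicate 2 or week 29 replicate 3. It was 1 without replicate 1 of both weeks and 2 without replicate 2 or replicate 3 of both.

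Among 12 measured EGF receptor ligands, receptors and regulators, 2 fell and 0 rose, with a median of −0.04, and −0.29, −0.40 and −0.34 in pairs 1, 2 and 3. HBEGF, a ligand shed in wounds, went from 154, 157 and 132 FPKM to 30.5, 39.8 and 41.4 FPKM, and fell by 1.98 ± 0.27 (adjusted p = 0.000332 in limma). ERRFI1, an inhibitor of the receptor, fell by 1.69 ± 0.24, from 46.4, 72.0 and 43.1 FPKM to 14.6, 16.4 and 16.8 FPKM. With the block 5 fell. The ligand EREG was among those, at 6.13, 5.49 and 6.36 FPKM at week 12 and 1.89, 1.35 and 1.86 FPKM at week 29 (−1.57 ± 0.63, adjusted p = 0.396 without the block and 0.000186 with it). The ligand AREG was another, at −1.12 ± 0.52 (adjusted p = 0.509 and 0.0310).

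Some inflammatory genes and inhibitors of NF-kB fell. Of 27 measured cytokines and NF-kB targets, 4 fell and 0 rose, with a median of −0.44, and 8 fell with the block. PTGS2 is the inducible enzyme of prostaglandin synthesis (chromosome 1, 186671791 to 186680427). On the log2(FPKM + 0.5) scale, which shrinks the changes of low genes, it had the largest fall of all named genes. It stood at 104, 222 and 90.0 FPKM at week 12, then 7.12, 16.9 and 9.76 FPKM at week 29 (−3.53 ± 0.66, 11.5-fold, adjusted p = 0.00847 in limma). Its adjusted p was 0.0842 without week 12 replicate 2 and 0.0738 without week 29 replicate 1. IL6 (chromosome 7, 22725884 to 22732002) stood at 64.4, 219 and 46.3 FPKM and then at 7.80, 15.3 and 15.5 FPKM (−2.77 ± 0.48, 6.84-fold). PTGER4, a receptor for prostaglandin E2, fell with them, from 15.8, 25.9 and 13.7 FPKM to 2.04, 3.20 and 2.95 FPKM (−2.52 ± 0.35).

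TNFAIP3 (A20), a ubiquitin-editing brake on NF-kB, went from 171, 88.0 and 143 FPKM to 33.4, 30.8 and 43.4 FPKM (−1.85 ± 0.31), with replicate 2 the lowest library at each week. NFKBIA, which holds NF-kB in the cytoplasm, went from 221, 244 and 227 FPKM to 119.6, 120.0 and 116 FPKM (−0.95 ± 0.19). The neutrophil chemokine CXCL8 stood at 394, 388 and 368 FPKM and then at 70.2, 160.3 and 116 FPKM (−1.80 ± 0.45). It missed the threshold (adjusted p = 0.0628 in limma) and passed with the block (0.00306). The interleukins IL1B (−1.31 ± 0.36) and IL1A (−1.14 ± 0.46) passed with the block. The list's count of falls was 2 without week 12 replicate 2 or week 29 replicate 1. It was 0 without replicate 1 of both weeks, 1 without replicate 2 of both and 2 without replicate 3 of both.

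A few genes of the Hippo and TGF-beta pathways fell, and most members did not pass. Of 18 measured YAP and TEAD pathway genes, 3 fell and 0 rose, with a median of −0.13. CCN2, a matrix protein and standard YAP target (chromosome 6, 131948176 to 131951373), went from 29.3, 51.2 and 29.6 FPKM to 5.99, 3.93 and 5.76 FPKM (−2.67 ± 0.33, 6.36-fold). Its relative CCN1 went from 198, 449 and 180.2 FPKM to 78.4, 76.4 and 63.7 FPKM (−1.79 ± 0.35). LATS2, a kinase that restrains YAP, fell by 0.77 ± 0.16. The YAP target ANKRD1 stood just outside the threshold (−2.17 ± 0.52, adjusted p = 0.0502 in limma, and 0.0193 with the block). The list's count was 1 without week 12 replicate 2 or week 29 replicate 3, and 1 without any replicate number in both weeks.

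Of 21 measured TGF-beta and SMAD feedback genes, 2 fell and 0 rose, with a median of −0.52, and 7 fell with the block. SMAD7, the inhibitory SMAD, went from 25.1, 48.8 and 24.7 FPKM to 7.08, 10.6 and 4.86 FPKM (−2.05 ± 0.39). Replicate 3 was the lowest library of each week, and the weeks did not overlap. The receptor TGFBR2 (−0.84 ± 0.22) and the SMAD repressor SKIL (−1.53 ± 0.45) passed with the block. The list's count was 1 without week 12 replicate 2, week 29 replicate 1 or week 29 replicate 3, and 3 without week 29 replicate 2. It was 0 without replicate 2 of both weeks and 1 without replicate 1 or replicate 3 of both.

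Of 25 measured genes of the cytoskeleton and motility, 5 fell, 0 rose and 20 did not pass. The median was −0.20, and −0.25, 0.08 and −0.55 in pairs 1, 2 and 3, so that pair 2 lay on the other side of 0. TPM1, a tropomyosin, went from 381, 369 and 385 FPKM to 165, 207 and 159 FPKM (−1.10 ± 0.19). RND3, a regulator of the actin cytoskeleton, went from 628, 516 and 574 FPKM to 249, 245 and 281 FPKM (−1.15 ± 0.25). RHOB fell by 0.98 ± 0.18, the calponin CNN3 by 0.79 ± 0.16 and the tropomyosin TPM4 by 0.69 ± 0.15. The smooth muscle marker TAGLN is listed among genes of the epithelial-mesenchymal transition. It went from 151, 88.6 and 144 FPKM to 36.1, 42.4 and 16.6 FPKM (−2.06 ± 0.45). Its list, with 16 measured genes, had 2 falls, 0 rises and a median of −0.37. Of 28 integrin and matrix genes, the secreted matrix protein THBS1 fell by 1.23 ± 0.29, and 0 rose. The cytoskeletal count was 1 without week 12 replicate 2 or week 29 replicate 3, 2 without week 12 replicate 1 or week 29 replicate 1, and 3 without either of the others. It was 1 without any replicate number in both weeks.

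Regulators of epithelial identity were also examined. Of 18 measured epithelial transcription factors, 2 fell and 0 rose, with a median of −0.37. KLF4, a factor of the skin barrier, went from 129, 209 and 132 FPKM to 33.0, 51.3 and 41.4 FPKM (−1.88 ± 0.26). SOX9, a factor of hair follicle stem cells, went from 16.0, 19.9 and 17.5 FPKM to 5.89, 5.99 and 7.52 FPKM (−1.40 ± 0.17, adjusted p = 0.000151 in limma). Of 12 NOTCH pathway genes, the NOTCH-induced repressor HES1 (−1.59 ± 0.26) and the coactivator MAML2 (−0.85 ± 0.20) fell and 0 rose. Of 20 p53 target genes, GADD45A (−1.45 ± 0.18) and the cyclin kinase inhibitor CDKN1A (76.3 ± 8.13 FPKM at week 12 and 38.4 ± 8.83 FPKM at week 29, SD, n = 3) fell and 0 rose. GADD45A stood at 182, 224 and 212 FPKM at week 12, then 75.3, 69.4 and 79.8 FPKM at week 29, and the median of its list was 0.02.

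In other lists, as in the integrin, NOTCH and p53 target lists above, 1 or 2 members fell, against 0.822% of all genes tested. These are given as values of single genes, and no list was tested. Among them were TIPARP of 9 AHR pathway genes (−1.63 ± 0.26), HSPB8 of 17 heat shock genes (−1.77 ± 0.34), and the histone demethylase KDM6A of 15 chromatin regulators (−0.99 ± 0.17). TRA2A (−0.89 ± 0.14) and DDX5 (−0.73 ± 0.17) fell of 28 splicing genes. 0 members of these lists rose. ANKRD37 fell of 30 genes of hypoxia and glycolysis (−1.11 ± 0.24, adjusted p = 0.0299 in limma), and 0 rose. Of 16 circadian clock genes, BHLHE40 (−1.47 ± 0.31), which is also in the early response list, fell and TEF rose. The 1 fall among 16 basal keratinocyte genes was SOX9. Among the genes with the largest falls outside the lists were CSRNP1, a nuclear protein of the early response (−2.33 ± 0.24), and CCDC85B (−2.62 ± 0.30). PRR9, a gene of the epidermal differentiation complex (−2.35 ± 0.37), and the vasoconstrictor peptide EDN1 (−2.32 ± 0.37) were others. EDN1 stood at 41.5, 54.3 and 32.1 FPKM at week 12, then 7.64, 9.91 and 6.61 FPKM at week 29. ATP5MC1P6 (−2.21 ± 0.40) is a pseudogene whose reads could come from its parent gene, and its value is uncertain.

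**Figure D3:**
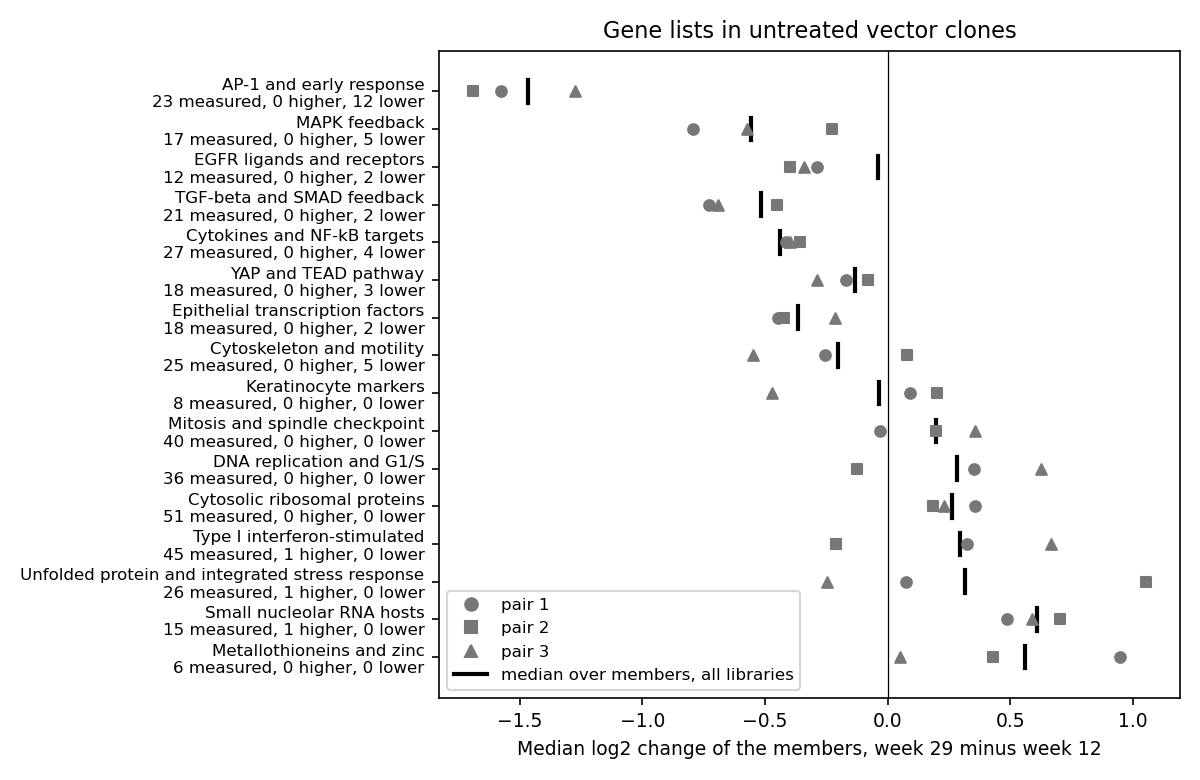
Median log2 change of the measured members of 16 gene lists (black bar) and the same median in each same-numbered pair of libraries (grey symbols), with the number measured, higher and lower beside each name. The early response list lies furthest below 0, at −1.47, and its 3 pairs run from −1.69 to −1.28.

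The rises were few, with a median level of 2.76 FPKM at week 12, the week in which a rise is low by definition. OASL, an interferon-induced protein of antiviral defence (chromosome 12, 121019111 to 121039242), stood at 3.72, 3.30 and 3.77 FPKM at week 12, then 15.7, 11.7 and 18.3 FPKM at week 29 (1.92 ± 0.39, 3.79-fold, adjusted p = 0.0165 in limma). It was the 1 riser among 45 interferon-stimulated genes, 0 of which fell, and the list's median was 0.29, with −0.21 in pair 2. DDIT3 (CHOP), a factor of the integrated stress response, stood at 96.8, 106 and 102 FPKM and then at 204, 185 and 166 FPKM (0.86 ± 0.20, adjusted p = 0.0434). Of 26 genes of the unfolded protein and integrated stress response, DDIT3 rose and 0 fell. The list's median was 0.32, and 0.07, 1.05 and −0.25 in pairs 1, 2 and 3, so that the pairs did not move alike. DDIT4, an inhibitor of mTOR signalling in that list, stood at 1.05 ± 0.26 (adjusted p = 0.0599, and 0.0335 with the block).

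SNHG3, a host of small nucleolar RNAs, went from 6.94, 8.30 and 9.91 FPKM to 14.7, 14.3 and 20.7 FPKM (0.94 ± 0.22). Of 15 such host genes, SNHG3 rose, 0 fell, 13 lay above 0 and the median was 0.61. SNHG1 stood at 208, 109 and 214 FPKM at week 12, then 435, 408 and 436 FPKM at week 29 (1.33 ± 0.36, adjusted p = 0.0982 in limma, and 0.0329 with the block). The kinase SYK (0.63 ± 0.14), the clock-related factor TEF (0.73 ± 0.16) and the ubiquitin ligase MARCHF8 (0.73 ± 0.17) also rose. CALB1, a calcium-binding protein (1.45 ± 0.30), and SYP, a synaptic vesicle protein (1.02 ± 0.23), rose at low levels. The mean of CALB1 went from 0.124 to 1.38 FPKM and that of SYP from 0.296 to 1.11 FPKM. CALB1 stood at 0.716, 0.781 and 2.63 FPKM in the week 29 libraries. The other 4 rises carry no symbol or are antisense genes, which are not named. Without 1 library at a time, limma gave 0 to 7 rises: 1 without week 12 replicate 1, 0 without week 12 replicate 2, 7 without week 12 replicate 3, and 1, 4 and 0 without week 29 replicates 1, 2 and 3.

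Keratinocyte markers and growth genes gave 0 calls in limma. Of 8 keratinocyte markers 0 passed (1 at unadjusted p under 0.05), and 6 lay below 0. Their median was −0.04, and 0.09, 0.20 and −0.47 in pairs 1, 2 and 3. The basal keratin KRT5 stood at 1028, 1124 and 1414 FPKM at week 12, then 1085, 1344 and 1066 FPKM at week 29 (−0.02 ± 0.26). The epidermal factor TP63 stood at 61.5, 68.4 and 83.6 FPKM and then at 58.3, 81.6 and 73.8 FPKM (0.00 ± 0.21). The labelled cell type was therefore present by its markers at both weeks. Of 40 mitosis genes (median 0.20), 36 replication genes (0.28) and 51 cytosolic ribosomal protein genes (0.26), 0 passed in either direction (1, 1 and 2 at unadjusted p under 0.05), and 49 of the 51 lay above 0. In pairs 1, 2 and 3 the medians were −0.03, 0.20 and 0.36 for mitosis and 0.35, −0.12 and 0.63 for replication. For ribosomal proteins they were 0.36, 0.19 and 0.23. Week 29 was higher without overlap in 5, 12 and 21 genes of these lists, against 7.91% of all genes tested. Of 6 metallothioneins and zinc genes 0 passed (2 at unadjusted p under 0.05). MT1E, a metal-binding protein, stood at 0.86 ± 0.24 (adjusted p = 0.119 in limma, and 0.0381 with the block).

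Markers of other cell types were read in each library. TYR, PECAM1 and KDR were listed at 0 in all 6 libraries. The summed level of 5 melanocyte markers was 4.64 to 10.9 FPKM at week 12 and 3.58 to 7.0 FPKM at week 29, and that of 4 endothelial markers 8.67 to 10.9 and 11.7 to 16.2 FPKM. The endothelial sum was nearly all CDH5, since VWF reached at most 0.437 FPKM. CDH5 changed by 0.52, did not pass and was higher in every week 29 library than in any week 12 library. Its part in the results was not tested. The summed level of 6 fibroblast markers was 4.60, 25.7 and 2.92 FPKM at week 12 and 2.98, 5.27 and 2.71 FPKM at week 29. Its high value in week 12 replicate 2 came with LUM at 14.6 FPKM and DCN at 9.34 FPKM, while COL1A2 and PDGFRA were listed at 0 in that library. COL3A1, another of the 6, was highest there too, at 0.0248, 0.435 and 0.0598 FPKM at week 12. COL1A2 was listed at 0 in all 3 week 12 libraries. This is the library that was highest for most of the falls. Fibroblast markers' part in the results was not tested. The macrophage marker CD68 stood at 1.83, 1.59 and 1.36 FPKM at week 12, then 6.10, 1.54 and 4.27 FPKM at week 29 (0.94 ± 0.52, adjusted p = 0.609 in limma). It was higher in 2 of the 3 week 29 libraries, and its part in the results was not tested. The leukocyte markers PTPRC and CD3E reached at most 0.109 and 0.573 FPKM. The keratinocyte differentiation gene IVL was high in week 12 replicate 2 too, at 48.4, 294 and 32.1 FPKM at week 12 and 16.2, 75.3 and 17.4 FPKM at week 29 (−1.46 ± 0.97).

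The week 29 and week 12 libraries of the other clones share no library with the 6 described, and vector clones with iAs share their clonal lines. All 4 week comparisons come from the same model with a shared spread per gene, so their calls are not independent. In vector clones with 100 nM iAs 3 genes rose (0.0211%) and 23 fell (0.162%), and 17 of the latter were among the 117. That is 73.9% of the 23 and 14.5% of the 117. In untreated miR-186 clones 223 genes rose (1.57%) and 189 fell (1.33%), and 59 falls were shared, 31.2% of those and 50.4% of the 117. In miR-186 clones with 100 nM iAs 1011 genes rose (7.11%) and 721 fell (5.07%), and 56 falls were shared, 7.77% of those and 47.9% of the 117. Of the 117 genes, 86.3%, 90.6% and 81.2% lay below 0 in these 3 comparisons, against 51.6%, 44.4% and 48.3% of all genes tested. Their medians were −0.70, −0.91 and −0.67. The early response list had medians of −0.97, −1.72 and −1.58 there, with 4, 19 and 19 of its 23 genes falling.

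The genes that fell in all 4 week comparisons numbered 17. They include KLF6, CSRNP1, IER3, CCDC85B, NR4A2, HBEGF, KLF4, JUN, TNFAIP3, RHOB, DUSP4 and NFKBIA. ZFP36L1, an RNA-binding protein that speeds mRNA decay, PPP1R15A, a phosphatase subunit of the integrated stress response, the kinase PIM1 and the NF-kB modulator NFKBIZ are also among them and were chosen after their values were seen. KLF6 changed by −1.62, −1.72 and −1.89 in vector clones with iAs, untreated miR-186 clones and miR-186 clones with iAs. CSRNP1 changed by −2.28, −3.36 and −2.75. Of the rises, DDIT3 passed in all 3 as well, at 1.16, 0.93 and 0.92.

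**Figure D4:**
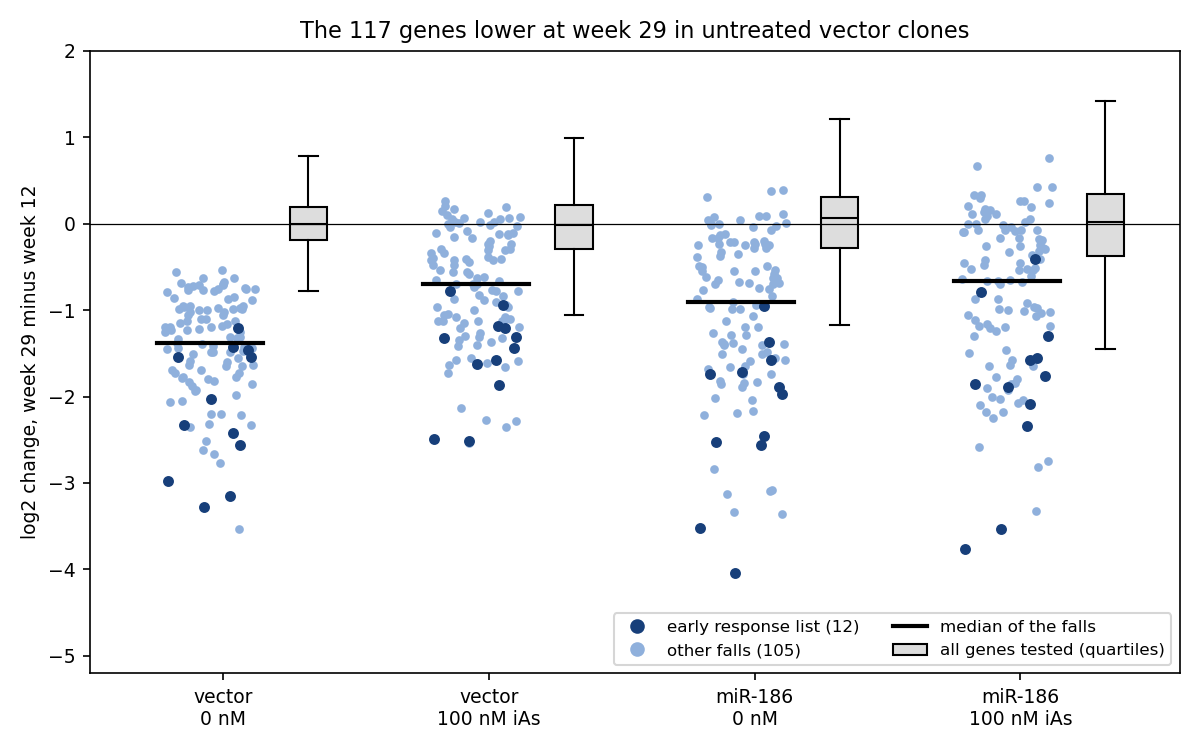
Log2 change from week 12 to week 29 of the 117 genes that fell in untreated vector clones, shown in each of the 4 kinds of clone, with the 12 early response genes in dark blue and the median as a black bar. Grey boxes give the quartiles of all genes tested, with whiskers to the furthest gene within 1.5 times the box height, and the medians of the falls are −1.38, −0.70, −0.91 and −0.67.

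The change between weeks was set against that in the other clones. For a difference of week effects, limma gave 0 genes between vector clones with and without iAs (1058 at unadjusted p under 0.05) and 0 between untreated miR-186 and vector clones (1910). SOX9 had the smallest p for the first difference: its change was −1.40 without iAs and −0.08 with it, a difference of 1.32 ± 0.24 (adjusted p = 0.215 in limma). KDM6A stood at −0.99 without iAs and 0.27 with it, a difference of 1.26 ± 0.24 (adjusted p = 0.215). Between constructs, TRA2A stood at −0.89 in vector clones and 0.11 in miR-186 clones, a difference of 1.00 ± 0.20 (adjusted p = 0.257). FILIP1L, a filamin-related protein, stood at −1.73 and 0.31, a difference of 2.03 ± 0.42 (adjusted p = 0.257). In the opposite direction, the DNA glycosylase NEIL1 stood at 0.45 without iAs and −1.36 with it, a difference of −1.81 ± 0.38 (adjusted p = 0.427). The clock gene PER1 stood at 0.12 in vector clones and −1.84 in miR-186 clones, a difference of −1.96 ± 0.48 (adjusted p = 0.296). The cytoskeletal falls TPM1 and RND3 stood at −0.16 and 0.20 in vector clones with iAs and at −0.35 and −0.02 in untreated miR-186 clones, and neither difference passed.

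Sums of FPKM over the 6 libraries ran from 747502 to 834160, with 13815 to 14077 genes at 0.5 FPKM or more. The top 10 genes took 13.7% to 15.8% and mitochondrially encoded genes 11.4% to 14.6% of the FPKM. Read counts were not used here, so absolute depth was not measured. The change across genes sloped by 0.28, 0.22 and −0.17 log2 units per 10 points of gene GC content in pairs 1, 2 and 3. With a correction for GC content, 99 of the 117 falls and 11 of the 12 rises passed. Median changes over 138 windows of 20 Mb of the genome ran from −0.19 to 0.21.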

How the data were processed

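The submitters' processing notes name STAR 2.6.0c, Cuffdiff 2.2.1 and the build GRCh38, and the authors deposited FPKM per gene and library. Libraries were stranded mRNA preparations, pooled and sequenced together, per the labels' protocols. The annotation release and strand setting are not given in the sources used here.

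The deposited FPKM were analysed as log2(FPKM + 0.5), which shrinks the changes of low genes, for 14228 genes averaging 0.5 FPKM or more over 24 libraries. A limma model (3.58.1, in R 4.3.3) covered all 8 groups, with an intensity trend, robust moderation and Benjamini-Hochberg adjustment at 0.05. It was also run on simulated data with independent noise in each library. Libraries here were correlated, so that run does not measure false calls in these data. Errors are standard errors of log2 changes. GENCODE 29 gave coordinates. The labels call samples independent biological triplicates but do not say which clonal line each sample came from. The p-values therefore measure the spread between these samples, which may lie between clonal lines or be technical.

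Named genes are, among calls with a symbol, an average of 1 FPKM or more in the higher group and non-overlapping libraries, up to 15 of the largest changes in each direction. Added are up to 4 members with the smallest p and the defining members of each list, and 5 with the smallest p for each direction of a difference of week effects. Members and gene lists were chosen with earlier results of these data known. Not every list is printed, and some named genes are not reported here.

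Deviations from group means correlated at 0.307, 0.521 and 0.168 for same-numbered libraries, so numbers were treated as pairs, from the data; week 12 replicate 3 correlated more with week 29 replicate 1 (0.323). The alternatives were other pseudocounts, filters, scaling, GC correction, variance models, blocks, sets of samples, and leaving out libraries.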

Additional observations from a re-analysis of the deposited data

How the results depend on the processing

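With the replicate number as a block, falls and rises were 199 and 30 (fixed block), 192 and 34 (random), 209 and 48 (fixed, only the 6 libraries compared, with 96 of the 117 falls and 6 of the 12 rises among them), 253 and 101 (with GC correction) and 200 and 31 (with median ratio scaling). Without a block, limma gave 59 falls in a fit on only the 6 libraries, with 50 of the 117 falls among them. It gave 29 rises with GC correction. Leaving out 1 library or 1 replicate number gave 22 to 105 falls and 0 to 7 rises. Pseudocounts of 0.1 or 1, a minimum of 1 FPKM, no filter, median ratio scaling, no intensity trend and a fit on the 12 vector libraries kept both counts within 1.5 times. Of the 23 named rises and falls, 0 changed direction in any of these fits. They were chosen for non-overlapping libraries, so leaving out libraries or adding a block could not change their direction. The 15 named falls kept 7 to 15 calls without 1 library or number, and the 8 named rises 0 to 4. The fixed block on only the 6 libraries kept 13 of the named falls and 3 of the named rises. Without a block, the fit on the 6 libraries kept 11 of the named falls. The rises kept 3 without a filter, 2 in the fit on the 6 libraries and 2 in that on the vector libraries. The difference between constructs gave 4 genes without a filter and 2 with the block in only its libraries. Every other fit of the 2 differences gave 0. The 3 libraries per week and unknown depth limit precision.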
